A study of Homo sapiens with 9 samples.

Results

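Lipoprotein lipase, the carnitine transporters, the carnitine shuttle and the long- and medium-chain enzymes of mitochondrial beta-oxidation make up the 10 genes described here: LPL, SLC22A16, SLC22A5, CPT1A, SLC25A20, CPT2, ACADVL, ACADM, HADHA and HADHB. They were selected by symbol, all 10 were found among the 20637 genes of the table, and all 10 were among the 12569 genes with enough reads to be tested. The list was drawn up with results of these same libraries in view, and the high level of LPL in HRA cells was among them. LPL is therefore described without a test. For the other 9 genes, log2 fold changes and adjusted p-values come from a limma fit over all 12569 genes. They describe these libraries and are not independent evidence that this pathway was affected.

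Polyadenylated RNA was sequenced from HL-60, an established human promyelocytic line from an acute myeloid leukaemia, in 3 groups of 3 biological replicates. Parental HL-60 cells served as the reference. HRA cells were HL-60 cells resistant to cytarabine (Ara-C), a nucleoside analogue, and were maintained in 100 nM of it. HRD cells were HL-60 cells resistant to daunorubicin (DNR), an anthracycline, and were maintained in 30 nM of it. The labels name a single resistant line for each drug, so that the replicates cover the spread within a line and not over independently derived lines, and acquired resistance cannot be told apart from the drug in the medium.

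Long-chain fatty acids reach a cell as free acids or are released from lipoprotein triglyceride by lipoprotein lipase. Inside the cell they are joined to coenzyme A, transferred to carnitine by CPT1 on the outer mitochondrial membrane, carried across the inner membrane by SLC25A20 and transferred back to coenzyme A by CPT2. Acyl-CoA dehydrogenases and the mitochondrial trifunctional protein then shorten the chain, and leukaemia cells can draw part of their energy from this route.

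Expression is given as normalized read count, a count of reads per gene divided by the size factor of its library. Values are not divided by gene length, so levels are compared between groups and not between genes. Errors beside means are SD over 3 replicates and errors beside log2 fold changes are SE of the fit on log2(value + 1). Calls were made in limma where the p adjusted by Benjamini-Hochberg fell below 0.05. The libraries held 20822709 to 66563328 reads. Of the markers of the promyelocyte identity of HL-60, all 7 were in the table, and their summed level was 301339 to 344229 in parental, 274576 to 304843 in HRA and 223494 to 279006 in HRD libraries, mostly from MPO. Its members did not move together: mean CTSG was 10855, 4120 and 6728 and mean PRTN3 2423, 747.6 and 1914 in parental, HRA and HRD cells, while mean MYB was 12903, 15293 and 11944, mean CD33 2478, 3046 and 2528, and ELANE at most 1.88. Summed monocyte markers stood at 169 to 239, 134 to 204 and 211 to 337 in the same order of groups, mostly from CD68 (means 185, 152 and 249). CD14 had 0 reads in the parental and HRA libraries and 4 in the HRD libraries together. Summed fibroblast and epithelial markers stood at 69.9 to 105, 91.4 to 152 and 284 to 399, mostly from KRT8. Of 6 adipocyte markers 2 were in the table and summed to at most 6.13. Summed lymphocyte markers stood at 18.0 to 26.9 in parental, 25.6 to 71.7 in HRA and 5.34 to 8.43 in HRD libraries. The parental and HRA sums overlapped. CD79A had the same order of groups as LPL, at 8.99 to 19.6, 23.1 to 40.6 and 1.51 to 6.45. CD3D stood at 6.17 to 9.82, 2.44 to 27.1 and 0 to 3.01, and mean NCAM1 at 0.41, 1.13 and 1.69. CD3E and MS4A1 had at most 3 reads in any group. Summed erythroid and megakaryocyte markers stood at 3.37 to 8.99, 4.87 to 18.9 and 3.21 to 6.03. These marker levels differed between groups together with the genes below, and their part in the results was not tested.

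Of the 9 genes other than LPL, 3 were called higher in HRA than in parental cells and 0 lower, where 9.13% of all tested genes were called higher and 6.1% lower (15.2% in either direction). In HRD, 2 of the 9 were called higher and 2 lower than in parental cells, against 10.7% and 12% of all tested genes (22.8% in either direction). Between the resistant lines 1 of the 9 was called higher in HRD than in HRA and 3 lower, against 13.9% and 16.2% (30.1% in either direction). The 3 libraries of 1 group all lay above or all below those of the other for 4 of the 9 genes in the HRA comparison, 4 in the HRD comparison and 5 between HRD and HRA, against 38%, 35.3% and 47% of all tested genes. The median log2 fold change over all 10 genes, LPL included, was 0.24 in HRA and 0.05 in HRD. Without LPL it was 0.07 in HRA, the value of ACADVL, and 0.07 in HRD, the value of HADHA. Over all tested genes it was -0.01 and 0.01. Because the genes were chosen with results in view, nothing is read from these counts about the pathway as a whole. Both comparisons share the parental libraries. The levels of the 10 genes separated into 3 kinds: LPL, SLC22A16 and CPT1A were lowest in HRD by large factors, SLC22A5, CPT2 and ACADVL were higher in at least 1 resistant line by less than 2-fold, and SLC25A20, ACADM, HADHA and HADHB were not called in any comparison.

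**Figure D1:**
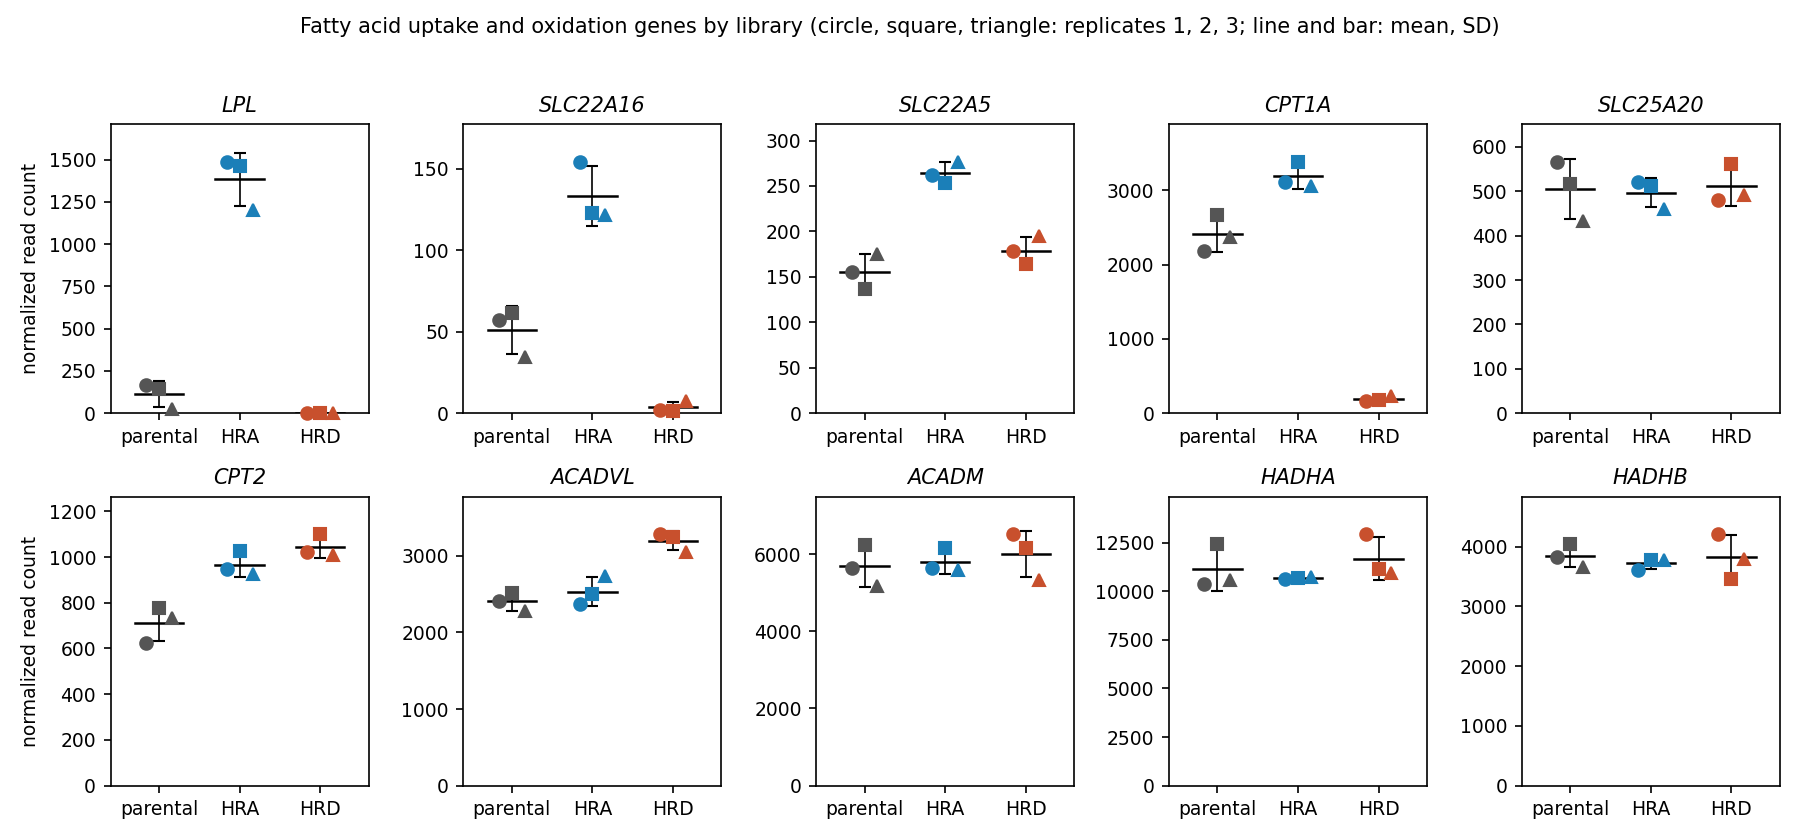
Normalized read count (vertical axis, from 0, a scale for each gene) of the 10 genes in parental HL-60, HRA and HRD libraries, with a symbol for each replicate, a line at the mean and bars of 1 SD. LPL, SLC22A16 and CPT1A lie near the bottom of the axis in HRD, where LPL is at 0 in all 3 libraries, while SLC25A20, ACADM and HADHB overlap in every pair of groups.

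Lipoprotein lipase, encoded by LPL, is a secreted enzyme that hydrolyses the triglyceride of circulating lipoproteins. LPL stood at 168.9, 144.8 and 24.0 normalized reads in parental replicates 1, 2 and 3, at 1487, 1461 and 1202 in HRA and at 0 in every HRD library. All HRA libraries lay above all parental libraries, and all parental libraries lay above all HRD libraries. The means were 113 ± 77.7 in parental and 1384 ± 157 in HRA cells (SD, n = 3). In bulk RNA, a smaller share of cells with the transcript and less transcript per cell cannot be told apart, here and for each gene below.

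The log2 fold change of LPL in HRA was 4.02 ± 0.56 (SE), the 10th highest of 12569 genes, and was 3.13 without parental replicate 3, whose level was the lowest of its group. In reads, the parental libraries held 301, 118 and 16 of LPL and the HRA libraries 2131, 1080 and 987. With no read in any of the 3 HRD libraries, only a bound can be given. A floor of 3 reads over the HRD group equals 0.830 normalized reads. With the reads of each group pooled and divided by its pooled depth, LPL stood at 133 in parental and 1403 in HRA cells. Taking these pooled levels as fixed, LPL was at least 160.6-fold lower in HRD than in parental cells and at least 1690.5-fold lower than in HRA. The floor covers counting error in HRD only. It leaves out the spread of the other groups, and parental replicate 3, at 24.0, lay far below the pooled 133.

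SLC22A16, a plasma membrane transporter of carnitine that has also been studied as an importer of anthracyclines, had the same order of groups. It stood at 57.2, 61.3 and 34.5 normalized reads in the parental libraries, at 154, 123 and 122 in HRA and at 1.98, 1.51 and 7.48 in HRD. None of the 3 groups overlapped with another. The group means were 51.0 ± 14.5, 133 ± 18.4 and 3.66 ± 3.32 (SD, n = 3 each), and the 3 HRD libraries held only 12 reads of the gene together.

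SLC22A16 fell in HRD with a log2 fold change of -3.66 ± 0.43 (SE) against parental cells, a 12.7-fold difference (limma adjusted p = 0.000156), the 56th lowest of all tested genes. Between the resistant lines it was lower in HRD by -5.06 ± 0.43 on the log2 scale, a 33.4-fold difference (limma adjusted p = 1.38e-05). With so few HRD reads the size depends on the setting: against parental cells the log2 fold change was -2.72 with 5 added before the logarithm and -4.21 without HRD replicate 3, and against HRA it was -4.05 and -5.61. Its higher level in HRA, with a log2 fold change of 1.40 ± 0.43, was just past the threshold (limma adjusted p = 0.0489). That call did not hold under 10 of the 15 other settings, whose adjusted p ran from 0.000239 to 0.159. The limma adjusted p was 0.0775, 0.0708 and 0.144 on leaving out parental replicate 1, 2 or 3, and 0.159, 0.115 and 0.0949 on leaving out HRA replicate 1, 2 or 3. A model with a replicate block gave 0.0511.

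SLC22A5 encodes OCTN2, the high-affinity carnitine transporter whose loss causes primary carnitine deficiency. It stood at 155, 136 and 175 normalized reads in the parental libraries, at 262, 253 and 277 in HRA and at 178, 164 and 194 in HRD. The HRA libraries lay above all others, while parental and HRD libraries overlapped. SLC22A5 rose in HRA from 155 ± 19.6 to 264 ± 11.9 (SD, n = 3), a log2 fold change of 0.77 ± 0.14 (SE, limma adjusted p = 0.00540).

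In HRD the log2 fold change of SLC22A5 against parental cells was 0.21, with a 95% interval of -0.11 to 0.52 (limma adjusted p = 0.346). Between the lines SLC22A5 was lower in HRD than in HRA by -0.56 ± 0.14 on the log2 scale (limma adjusted p = 0.0140), a call that was lost without HRA replicate 1 (adjusted p = 0.0506) or HRA replicate 3 (0.0532). Thus both carnitine transporters had their highest mean in HRA, but only SLC22A16 was lower in HRD than in parental cells.

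CPT1A is the carnitine palmitoyltransferase of the outer mitochondrial membrane in most tissues other than muscle, the enzyme that commits long-chain fatty acids to oxidation and the one that malonyl-CoA inhibits. Its level was 2181, 2665 and 2376 normalized reads in the parental libraries, 3119, 3385 and 3064 in HRA and 161, 184 and 237 in HRD. The HRD libraries lay far below all others, the HRA libraries lay above all parental libraries, and no groups overlapped. The means were 2407 ± 243, 3189 ± 171 and 194 ± 39.0 (SD, n = 3 each).

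CPT1A fell in HRD by a log2 fold change of -3.64 ± 0.13 (SE) against parental cells, a 12.5-fold difference (limma adjusted p = 9.82e-09), the 57th lowest of all tested genes. Against HRA the log2 fold change was -4.05 ± 0.13, a 16.6-fold difference (limma adjusted p = 3.79e-09). In HRA its log2 fold change against parental cells was 0.41 ± 0.13, with a 95% interval of 0.12 to 0.70, and did not pass (limma adjusted p = 0.0603). It passed in a fit on the 2 groups alone (adjusted p = 0.0157), in a model with a replicate block (0.0351), with TMM scaling (0.0495) and on whole reads in DESeq2 (0.0171) and edgeR (0.0412).

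Of the other CPT1 isoforms, CPT1C, the form of the nervous system, had 0 reads in the parental, 0 in the HRA and 1 in the HRD libraries. No row of the table was matched to CPT1B, the form of muscle, so its level is not given.

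SLC25A20, the carnitine-acylcarnitine translocase of the inner membrane, stood at 566, 515 and 433 normalized reads in the parental libraries, at 520.0, 511 and 459 in HRA and at 481, 562 and 491 in HRD. The 3 groups overlapped. Its log2 fold change was -0.02 in HRA (95% interval -0.29 to 0.26, limma adjusted p = 0.944) and 0.02 in HRD (-0.25 to 0.30, adjusted p = 0.918). The data thus allow differences of up to 0.30 on the log2 scale in either direction.

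CPT2, the transferase of the inner membrane that returns the acyl group to coenzyme A, stood at 622, 778 and 731 normalized reads in the parental libraries, at 947, 1025 and 927 in HRA and at 1021, 1099.6 and 1009 in HRD. All libraries of both resistant lines lay above all parental libraries, and the HRA and HRD libraries overlapped. CPT2 rose from 711 ± 79.8 to 967 ± 51.9 in HRA and to 1043 ± 49.2 in HRD (SD, n = 3 each). The log2 fold changes were 0.45 ± 0.10 in HRA (SE, limma adjusted p = 0.0141) and 0.56 ± 0.10 in HRD (adjusted p = 0.00276).

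The HRA call of CPT2 was lost without HRA replicate 1 (adjusted p = 0.0509) or HRA replicate 2 (0.0656). Between the lines its log2 difference was 0.11, with a 95% interval of -0.11 to 0.33 (limma adjusted p = 0.443). In HRD, the enzymes on either side of the translocase therefore moved in opposite directions, CPT1A down and CPT2 up.

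**Figure D2:**
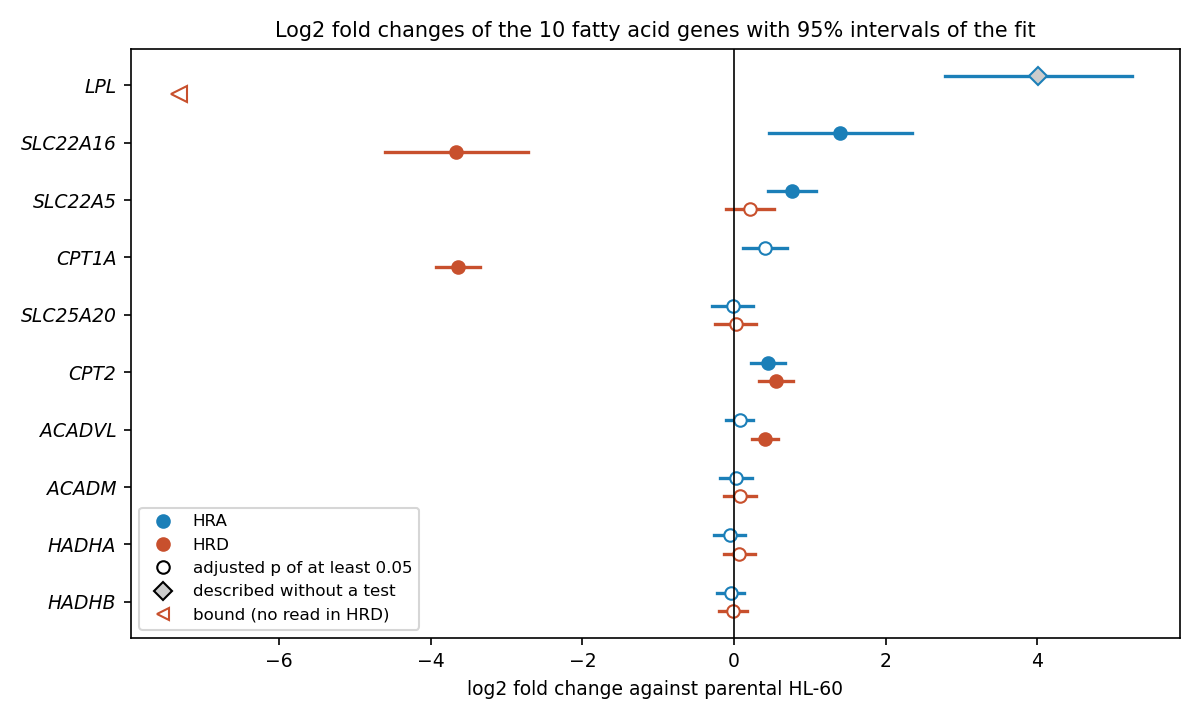
Log2 fold change against parental HL-60 (horizontal axis) of the 10 genes in HRA and HRD, with bars of the 95% interval of the fit. CPT1A and SLC22A16 lie near -3.6 in HRD, the open triangle marks the bound of LPL there, the grey diamond its value in HRA, and the intervals of SLC25A20, ACADM, HADHA and HADHB include 0 in both lines.

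Promoter sequence is shown for the carnitine shuttle and transport genes CPT1A, SLC22A16 and CPT2, because the first and the second were the members with reads that fell in HRD while CPT2 rose there. Each run gives the 250 bases upstream of the transcription start in RefSeq (GRCh38.p14), 5′ to 3′ on the strand of the gene, with CpG dinucleotides in capitals. The start is that of the annotation and was not measured in these cells.
CPT1A, chr11:68844278-68844527, minus strand: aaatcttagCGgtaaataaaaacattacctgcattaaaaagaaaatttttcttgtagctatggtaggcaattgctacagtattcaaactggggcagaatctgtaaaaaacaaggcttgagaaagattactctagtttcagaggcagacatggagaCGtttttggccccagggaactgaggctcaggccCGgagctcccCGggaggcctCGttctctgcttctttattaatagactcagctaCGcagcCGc
SLC22A16, chr6:110476614-110476863, minus strand: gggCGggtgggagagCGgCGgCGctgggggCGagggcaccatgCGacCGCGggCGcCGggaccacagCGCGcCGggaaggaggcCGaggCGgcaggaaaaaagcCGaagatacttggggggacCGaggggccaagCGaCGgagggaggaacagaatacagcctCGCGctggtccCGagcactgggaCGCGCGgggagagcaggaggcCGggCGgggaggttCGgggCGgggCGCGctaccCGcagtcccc
CPT2, chr1:53196574-53196823, plus strand: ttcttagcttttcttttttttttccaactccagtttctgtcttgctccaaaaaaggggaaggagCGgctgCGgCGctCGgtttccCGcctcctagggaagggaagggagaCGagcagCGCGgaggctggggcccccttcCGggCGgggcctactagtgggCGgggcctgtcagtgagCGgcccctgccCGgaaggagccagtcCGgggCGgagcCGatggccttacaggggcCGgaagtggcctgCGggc

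At the annotated starts used here, the 2 genes shown that fell in HRD had windows of different composition. The CPT1A window held 7 CpG dinucleotides at 44.4% GC, the SLC22A16 window 32 at 74.8% GC and the CPT2 window 18 at 65.2% GC, beside a median of 11 CpG and 58% GC over 35116 promoter windows of this length. The motif GGGCGG, searched on both strands, occurred 3 times in the SLC22A16 window, 3 times in that of CPT2 and 0 times in that of CPT1A, and 42.6% of all windows held it. A window was found for 9 of the 10 genes, and the motif AGGTCA, present in 12.1% of all windows on either strand, was in none of those of the 9 genes. HADHA and HADHB, which are transcribed in opposite directions from neighbouring starts, shared 194 bases of their windows. A match or its absence describes these letters only. Composition can depend on the start that is used: ACADVL had 2 windows, with 2 CpG at 49.6% GC and 21 CpG at 65.6% GC. Whether CPT1A is transcribed from the start used here or from a different start was not tested. The values of its window are therefore not read as those of the promoter in use.

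ACADVL encodes the very-long-chain acyl-CoA dehydrogenase, which takes the first step of the oxidation spiral on long chains at the inner membrane. It stood at 2415, 2516 and 2277 normalized reads in the parental libraries, at 2364, 2496 and 2731 in HRA and at 3279.7, 3249 and 3054 in HRD. The HRD libraries lay above all others, and parental and HRA libraries overlapped. ACADVL rose in HRD from 2403 ± 120 to 3194 ± 122 (SD, n = 3), a log2 fold change of 0.41 ± 0.08 (SE, limma adjusted p = 0.00398).

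In HRA the log2 fold change of ACADVL was 0.07, with a 95% interval of -0.10 to 0.25 (limma adjusted p = 0.566). Between the lines it was higher in HRD by 0.34 ± 0.08 (limma adjusted p = 0.00917), a call that was lost without HRA replicate 1 (adjusted p = 0.0523).

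ACADM encodes the medium-chain acyl-CoA dehydrogenase, and HADHA and HADHB encode the alpha and beta subunits of the trifunctional protein, which carries out the remaining steps on long chains. ACADM stood at 5640.0, 6224 and 5166 normalized reads in the parental, at 5641, 6146 and 5578 in the HRA and at 6511, 6163 and 5336 in the HRD libraries. HADHA stood at 10401, 12425 and 10568 in the parental, 10616, 10702 and 10716 in the HRA and 12936, 11171 and 10928 in the HRD libraries. HADHB stood at 3827, 4050.0 and 3665 in the parental, 3612, 3778 and 3782 in the HRA and 4209, 3466 and 3803 in the HRD libraries. The libraries of these genes overlapped between the groups, except that all HRD libraries of HADHA lay above all HRA libraries, a difference that did not pass (limma adjusted p = 0.336).

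In HRA, the 95% intervals of the log2 fold change were -0.18 to 0.24 for ACADM, -0.26 to 0.15 for HADHA and -0.23 to 0.14 for HADHB (limma adjusted p = 0.859, 0.726 and 0.747). In HRD they were -0.13 to 0.29, -0.13 to 0.27 and -0.20 to 0.17 (limma adjusted p = 0.607, 0.644 and 0.942). A change of more than 0.29 on the log2 scale in either line therefore lies outside the intervals of these 3 genes. The 12.5-fold fall of CPT1A in HRD was thus not accompanied by a called fall of any of the 4 spiral genes.

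Genes of the same and neighbouring pathways were read from the same fit in 7 lists of 124 genes, of which 108 were in the table and 97 were tested. Of the 97, 10 (10.3%) rose and 3 (3.09%) fell in HRA, with a median log2 fold change of 0.08. A model with a replicate block gave 19 and 5. In HRD 13 (13.4%) rose and 7 (7.22%) fell, with a median of 0.06, and the replicate block gave 18 and 10. The shares over all tested genes were 9.13% and 6.1% in HRA and 10.7% and 12% in HRD. Between HRD and HRA, 13 of the 97 were called higher in HRD and 9 lower, with a median of -0.05, beside 13.9% and 16.2% of all tested genes.

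Among genes of fatty acid uptake, binding and storage, 3 of 17 were called higher in HRA and 0 lower. FABP5, a fatty acid binding protein of the cytosol, rose from 4912 ± 629 to 7298 ± 618 normalized reads (SD, n = 3, log2 fold change 0.58 ± 0.10, limma adjusted p = 0.00403). PLIN2, which coats lipid droplets, was called at a log2 fold change of 1.32 ± 0.35, with HRA libraries at 1129, 2737 and 900.3 beside 484.9 to 723.9 in parental cells. In each group PLIN2 was highest in replicate 2, at 723.9 in parental, 2737 in HRA and 1589 in HRD cells. The PLIN2 call was lost without parental replicate 1 or 3 or HRA replicate 1 or 2 (adjusted p 0.0509 to 0.0826), and that of the fatty acid transport protein SLC27A5 without parental replicate 2 or any HRA replicate (0.0501 to 0.0778). In HRD 1 of 17 rose, the transport protein SLC27A3, from 96.1 to 188 normalized reads, and 0 fell. The fatty acid translocase CD36 and the lipase inhibitor ANGPTL4 had at most 3 reads in any group and were not tested.

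Of 9 acyl-CoA synthetases and thioesterases, 1 rose in HRA and 0 fell, and 4 rose in HRD and 1 fell. ACSL1, which activates long-chain fatty acids, rose from 1825 ± 136 to 2687 ± 179 in HRA (log2 fold change 0.56 ± 0.09, limma adjusted p = 0.00234) and to 3242 ± 250 in HRD (0.83, adjusted p = 8.77e-05). ACOT13, a thioesterase that reverses this step, rose in HRD from 734 to 1416 normalized reads (log2 fold change 0.94 ± 0.10, limma adjusted p = 8.78e-05). ACOT9 rose there too (log2 fold change 0.34, limma adjusted p = 0.0418) and ACSL5 fell (-0.23, adjusted p = 0.0499), both close to the threshold. ACOT11 also rose, a call that was lost without parental replicate 1 or 2 or any HRD replicate (adjusted p 0.0567 to 0.111). With all libraries kept, the ACOT11 call was lost in a fit on the 2 groups alone (0.0565) and without a filter (0.0626).

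Of 6 further carnitine shuttle and synthesis genes, 0 rose and 1 fell in HRA, and 1 rose and 0 fell in HRD. ALDH9A1, an enzyme of carnitine synthesis, fell in HRA from 2575 ± 179 to 1864 ± 18.1 normalized reads (log2 fold change -0.46 ± 0.08, limma adjusted p = 0.00451). BBOX1, the last enzyme of carnitine synthesis, had 2 reads in the parental, 3 in the HRA and 101 in the HRD libraries together. Scaled for depth, its ratio of HRD to parental reads was 45.6, with a 95% counting interval of 12.3 to 382. It was tested only because of its reads in HRD.

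Of 17 other genes of mitochondrial beta-oxidation, 1 rose and 1 fell in HRA, and 2 rose and 1 fell in HRD. DECR1, a reductase for unsaturated chains, rose from 788 ± 6.53 to 1065 ± 52.3 in HRA (log2 fold change 0.43) and to 1028 ± 53.7 in HRD (0.38). ACADSB, the dehydrogenase of short branched chains, fell in HRD from 877 to 609 normalized reads. The call of ETFDH, lower in HRA, was lost without parental replicate 2 or 3 or any HRA replicate (adjusted p 0.0605 to 0.133), and that of MCEE, higher in HRD, without parental replicate 2 or 3 or HRD replicate 2 or 3 (0.0614 to 0.0916). In a fit on the 2 groups alone, the MCEE call was lost too (0.0643).

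Of 15 peroxisomal genes, 2 rose and 0 fell in HRA, and 3 rose and 1 fell in HRD. ACOX2, an acyl-CoA oxidase for branched chains, rose in HRD with a log2 fold change of 2.46, which moved to 3.08 on leaving out parental replicate 2 and to 1.87 on leaving out parental replicate 3. HSD17B4 was called in both lines, in HRA not without HRA replicate 1 (adjusted p = 0.0675) or 2 (0.0550). The call of SCP2, the gene next to CPT2, in HRA was lost without parental replicate 1 or 3 or any HRA replicate (0.0568 to 0.121). That of PECR, lower in HRD, was lost without parental replicate 1 or 2 or HRD replicate 1 or 3 (0.0954 to 0.140). With all libraries kept, the PECR call was lost in a fit on the 2 groups alone (0.0916) and without a filter (0.0988).

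Of 17 regulators, 0 rose and 1 fell in HRA, and 1 rose and 2 fell in HRD. ACACB, which makes the malonyl-CoA that inhibits CPT1, stood at 320 ± 62.2 in parental and 214 ± 8.72 in HRD cells (log2 fold change -0.56 ± 0.17, limma adjusted p = 0.0330), a call that was lost without parental replicate 2 or 3 or any HRD replicate (0.0544 to 0.113). In a fit on the 2 groups alone, the ACACB call was lost too (0.0589). Against HRA the log2 fold change of ACACB in HRD was -0.78 (limma adjusted p = 0.00540). PPARG, a nuclear receptor for fatty acids, stood at 19.7 ± 7.94 in parental and 51.7 ± 18.6 in HRD cells (1.36 ± 0.40, adjusted p = 0.0321). This PPARG call was lost when parental replicate 1 or 2 or HRD replicate 2 or 3 was left out (0.0549 to 0.109). With all libraries kept, the PPARG call was lost without a filter on low values (0.0645). The calls of PPARD, lower in HRA, and PPRC1, lower in HRD, were lost without parental replicate 2 or 3 or HRA replicate 1 or 3 (0.0609 to 0.0938) and without parental replicate 1 (0.0554) or HRD replicate 2 (0.0628). The coactivator PPARGC1A had 38, 4 and 36 reads in the parental, HRA and HRD libraries together and was not tested.

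Of 16 genes of fatty acid synthesis and desaturation, 3 rose and 0 fell in HRA, and 1 rose and 2 fell in HRD. ELOVL1, which elongates saturated chains, rose in HRA from 2725 to 3754 normalized reads, while the calls of ELOVL5 and FADS2 were lost without parental replicate 1 or HRA replicate 1 or 2 (adjusted p 0.0657 to 0.0922) and without parental replicate 1 or 3 or any HRA replicate (0.0545 to 0.121). With all libraries kept, FADS2 did not pass in DESeq2 (adjusted p = 0.0541). FADS2, ACLY and ACSS2 were each highest in replicate 2 of every group. ACSS2 stood there at 2547 in parental, 2692 in HRA and 2228 in HRD cells, and at 270 to 831 in the other libraries. FASN and ELOVL1 were not highest in replicate 2 of every group. What set replicate 2 apart was not tested. ME1, a source of NADPH for synthesis, rose in HRD from 744.5 to 1380 normalized reads (log2 fold change 0.88 ± 0.10, limma adjusted p = 0.000103). ACACA, which makes the malonyl-CoA used for synthesis, fell in HRD from 4426 to 3169 normalized reads (-0.48 ± 0.11, adjusted p = 0.00780). ACLY was also called lower in HRD, not without parental replicate 2 or 3 or HRD replicate 1 or 3 (0.0635 to 0.152). With all libraries kept, the ACLY call was lost in a fit on the 2 groups alone (0.0765) and without a filter (0.0629). Beside the fall of CPT1A in HRD, the means of both acetyl-CoA carboxylase genes, ACACA and ACACB, were thus lower as well.

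**Figure D3:**
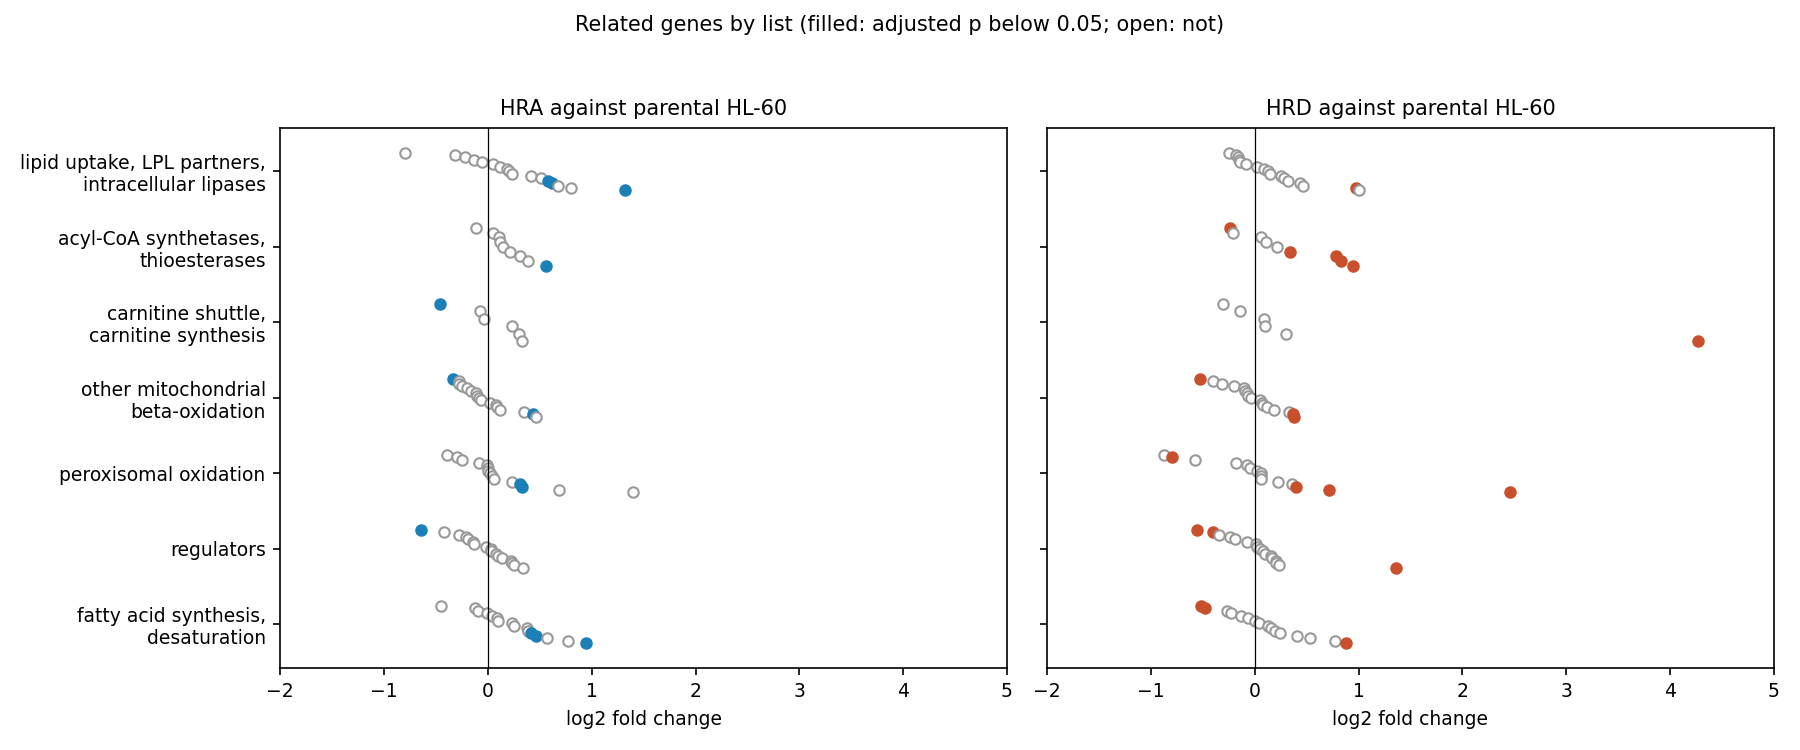
Log2 fold change against parental HL-60 (horizontal axis) of the tested genes of 7 related lists in HRA and HRD, with filled points at a limma adjusted p below 0.05. Filled points lie on both sides of 0, 10 higher and 3 lower in HRA and 13 and 7 in HRD, and the farthest to the right in HRD is BBOX1.

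The position of the 10 genes was compared with the 50 tested protein-coding genes nearest to each in the RefSeq gene order. On chromosome 8, which carries LPL, the median log2 fold change in HRA was 0.49 over 399 tested genes, and 55.4% of them were called higher. Of the 50 genes nearest to LPL, 29 were called higher in HRA and 0 lower, with a median of 0.55 and a range of -0.37 to 2.43, so that the 4.02 of LPL lay above all of them. The adjacent genes INTS10 and ATP6V1B2 had log2 fold changes of 0.56 and 0.48. In HRD the genes near LPL had a median of 0.22 and a range of -1.36 to 1.40, while LPL had no read.

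Around CPT1A, on chromosome 11, the 50 nearest genes had a median log2 fold change of 0.03 in HRD, with 4 called higher, 0 lower and a lowest value of -0.76. The adjacent TESMIN and MRPL21 stood at -0.06 and -0.10 beside the -3.64 of CPT1A. Around SLC22A16, on chromosome 6, the values in HRD ran from -0.98 to 0.79, with CDC40 at -0.09 and CDK19 at 0.39. In HRA the genes near SLC22A16 reached 0.94 at most and those near SLC22A5 0.57, below the 1.40 and 0.77 of these carnitine transporters. The 0.45 of CPT2 in HRA lay inside its neighbours' range of -0.33 to 0.90 (median 0.20, 8 called higher and 0 lower). The 0.41 of CPT1A in HRA lay inside -0.54 to 2.85 (median 0.14, 6 higher and 0 lower). In HRD, CPT2 and ACADVL also lay inside the ranges of their neighbours. SLC22A4, a transporter next to SLC22A5, had a log2 fold change of 0.30 in both lines (limma adjusted p = 0.133 in HRA and 0.116 in HRD).

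**Figure D4:**
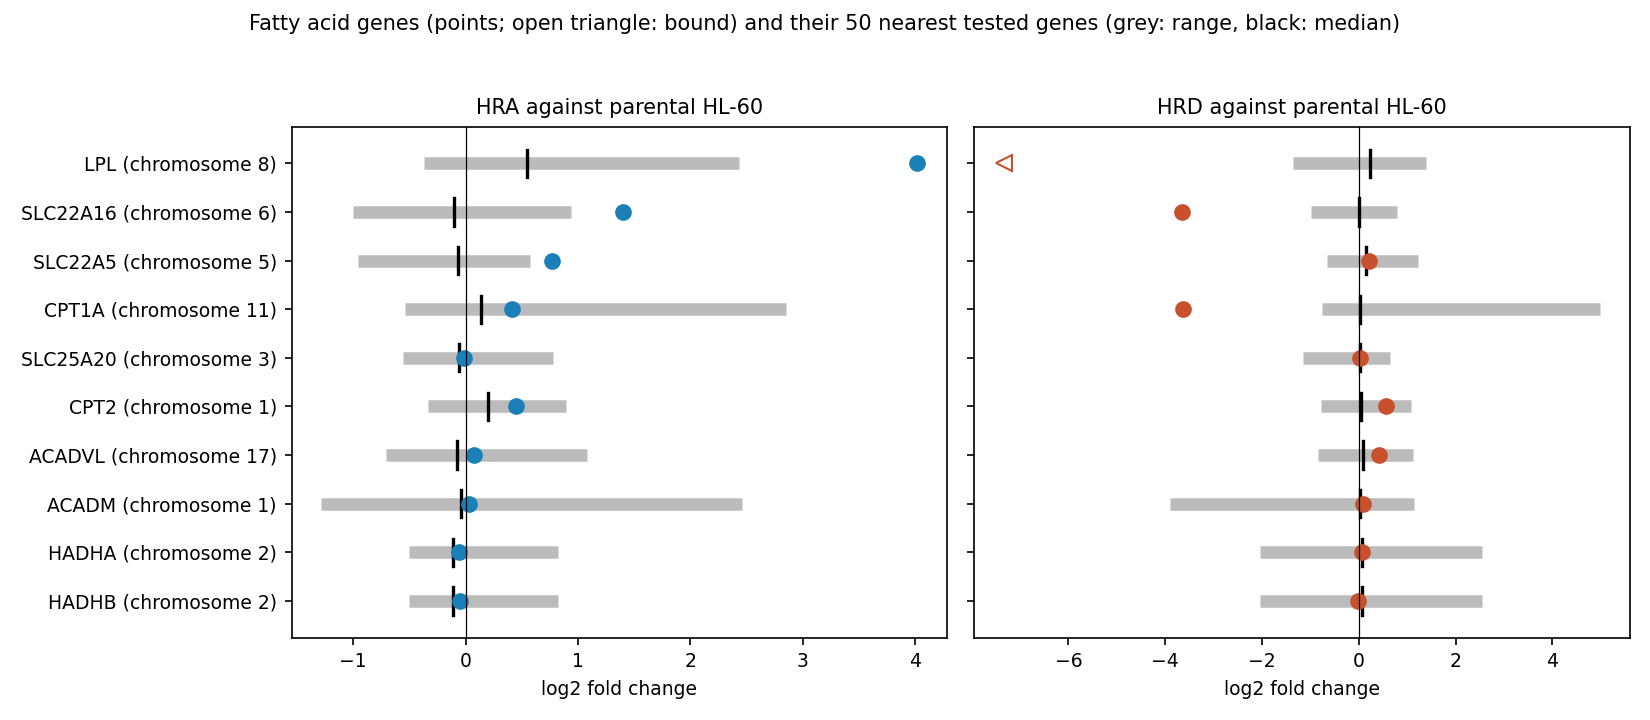
Log2 fold change against parental HL-60 (horizontal axis) of the 10 genes (points) and of the 50 tested protein-coding genes nearest to each (grey bar, range, with a black line at the median). In HRD the points of CPT1A and SLC22A16 and the bound of LPL lie to the left of the whole range of their neighbours, and in HRA LPL, SLC22A16 and SLC22A5 lie to the right of it.

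The genes whose levels ran most like LPL were found by Pearson correlation of log2(value + 1) over the 9 libraries among 9796 genes with a mean of at least 100. They were WASF3 (r = 0.998), STOM (0.989), GOLT1B (0.988), ZNF714 (0.986) and NABP2 (0.984). The libraries fall into 3 groups, so these values describe a shared order of groups and carry no p. WASF3 stood at 220 to 299.7 in parental, 496 to 544 in HRA and 102 to 110 in HRD libraries. ZNF714 shared the low parental replicate and the absence in HRD, with 137, 139 and 13.5 in the parental libraries, 275, 244 and 296 in HRA and 0 in all 3 HRD libraries.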

How the data were processed

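Polyadenylated RNA of 9 HL-60 libraries was analysed from the processed table alone. Per the submitters' processing notes, the human assembly hg19 was used with HTSeq 0.11.1, DESeq2, Cufflinks 2.2.1, Picard, TopHat2 2.1.1 and Bowtie2 2.3.5.1. Which tool did what, the annotation and whether counting used strand are not given in the sources used here, so reads of overlapping or antisense genes may be shared. The signal deposited by the authors is gene counts scaled by size factors. Within 0.001 all values (100%) were whole multiples of 1 constant per library, which gave back whole reads. Depth was 20822709 to 66563328 reads, and 3 reads equal 1.49 to 4.52 normalized reads. Counting intervals cover counting error only, and the bounds cover counting error in HRD only.

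The test took genes that reached a value of 10 in 3 or more of the 9 libraries (12569 of 20637). Values were transformed as log2(value + 1), which understates folds of low genes, and 1 limma 3.58.1 model (R 4.3.3) with a variance trend was fitted to all 9 libraries, with Benjamini-Hochberg adjustment over all tested genes and a threshold of 0.05. The code was tested on simulated data. With 3 libraries a group, no exact permutation p can be below 0.1. Alternatives were other pseudocounts, filters, TMM scaling, fits on 2 groups, edgeR 4.0.16 (quasi-likelihood) and DESeq2 1.42.0 on the recovered reads, a replicate block and leaving out each library. The members, the 7 related lists (lipid uptake and lipases, acyl-CoA synthetases and thioesterases, carnitine shuttle and synthesis, mitochondrial beta-oxidation, peroxisomal oxidation, regulators, synthesis and desaturation) and the tests were chosen with earlier results of these data known. Named are all 10 members, up to 3 called genes per list and comparison with the largest change, further called or unread genes where a count is small, and the 5 genes most like LPL.

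The replicate numbers were checked for pairing, which the labels do not state. The deviations from the group means of parental and HRA libraries with the same number correlated at 0.22, 0.38 and 0.14, so the blocked value is given beside HRA results where it changes a call. Those of parental and HRD libraries correlated at -0.08, 0.26 and 0.29, and those of HRA and HRD at -0.03, 0.41 and 0.23. In the 2 comparisons with HRD, the block changed no call of the 9 genes other than LPL, but it changed the counts of called genes. Gene order, chromosomes and promoters came from RefSeq (GRCh38.p14) by symbol (12298 tested genes matched), and promoter windows were cut at the start site. Python 3.11.15 with numpy 2.4.6, pandas 2.3.3 and matplotlib 3.10.9 was used.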

Additional observations from a re-analysis of the deposited data

Results flagged for a closer look

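Of the 9 genes other than LPL, 1 was called higher and 3 lower in HRD than in HRA. Of all tested genes, 13.9% were called higher and 16.2% lower (30.1% in either direction). For LPL, SLC22A16 and CPT1A, every HRA library lay above and every HRD library below all parental libraries. The difference of HRD minus HRA in the limma fit was -5.06 on the log2 scale for SLC22A16, -4.05 for CPT1A, -0.56 for SLC22A5 and 0.34 for ACADVL. For LPL, whose difference was not tested, the fitted value was -10.43. It depends on the value of 1 added before the logarithm because HRD had no read. With the pooled HRA level taken as fixed, the bound from the floor of 3 reads is at least 1690.5-fold lower.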

How the results depend on the processing

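For the 10 genes and the related genes with the largest called changes, 1165 alternative values were computed, of which 1045 kept direction and side of the threshold and 105 changed side. The other 15, all from leaving out 1 library, changed sign and belonged to genes that were not called. Their log2 fold changes on leaving out 1 library at a time ran, for HRA against parental cells, from -0.122 to 0.0705 for SLC25A20, -0.0350 to 0.0993 for ACADM and -0.102 to 0.0264 for HADHA. For HRD against parental cells they ran from -0.0829 to 0.11 for SLC25A20, -0.00600 to 0.151 for HADHA and -0.0823 to 0.0578 for HADHB. For HRD against HRA they ran from -0.0303 to 0.0813 for SLC25A20, -0.0121 to 0.131 for ACADM and -0.0362 to 0.104 for HADHB. The 1165 values include those of LPL, from which no call is read. Of the other 9 genes, CPT2, ACADVL, CPT1A and SLC22A16 kept their calls in HRD against parental cells under all settings. In HRA, SLC22A5 kept its call under all settings, while those of CPT2 and SLC22A16 did not hold in all, as given above. Leaving out 1 library at a time gave 575 to 950 genes higher and 328 to 589 lower in HRA than in parental cells (1148 and 767 with all). Among related genes it gave 4 to 13 higher and 1 to 4 lower there (10 and 3 with all). It gave 898 to 1335 genes higher and 1136 to 1564 lower in HRD than in parental cells, with 9 to 18 related genes higher and 3 to 5 lower (13 and 7 with all). Between HRD and HRA it gave 1049 to 1513 genes higher and 1342 to 1871 lower, 0 to 1 of the 10 genes higher and 3 to 4 lower, and 9 to 14 related genes higher and 7 to 10 lower. With a replicate block, 1202 genes were lower in HRA (767 without), 19 related genes were higher and 5 lower in HRA (10 and 3 without), and 15 related genes were lower in HRD than in HRA (9 without). Against parental cells, the block gave 1744 genes higher and 1895 lower in HRD (1350 and 1513 without). Related genes there were 18 higher and 10 lower (13 and 7 without). Related genes higher in HRA numbered 16 with DESeq2, and those lower in HRA 5 with DESeq2 and 5 in a fit on 2 groups. Related genes lower in HRD than in parental cells numbered 3 in a fit on 2 groups and 4 without a filter. The cause of these shifts was not tested, beyond the smaller number of samples in the fits that left out libraries.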

Other observations

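Parental replicate 3 held a low level of LPL, 24.0 normalized reads beside 168.9 and 144.8, and the same pattern was looked for among all genes after these values were seen. Of 10481 tested genes whose parental mean was 50 or more, 9 stood in replicate 3 lower than the mean of the other parental replicates by 4-fold or more, against 5 in replicate 1 and 1 in replicate 2. The 9 genes were CLEC5A, CR1, CSTF2T, FSTL5, LPL, SPP1, ZNF431, ZNF614 and ZNF714. Of these, 4 had no read in any HRD library, LPL among them. Among all tested genes, 23 had no read in any HRD library, 10 of them at a parental mean of 50 or more.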
